A study of Homo sapiens with 12 samples.

Results

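The metallothioneins were followed as 9 named genes: the 8 metallothionein entries MT2A, MT2P1, MT1X, MT1E, MT1F, MT1G, MT1M and MT1L, and MTF1, the metal-responsive transcription factor. They are 9 of the 65975 gene identifiers of the expression table, and they fill 10 entries because the name MT2P1 stands for 2 identifiers. The genes were selected on the RD comparison, in which MT2P1 was among the largest drops, so RD values are given below as a description with no test. Tests on these genes were kept to the KDM3A knockdown in Rh30 and, for MT2A, MT1X and MTF1, to the difference between the control cells of the 2 lines.

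Metallothioneins are small cysteine-rich proteins that bind zinc, copper and cadmium through their sulphur atoms, and they buffer free zinc and protect against toxic metals and oxidants. When free zinc rises, MTF1 binds it through its zinc fingers, moves to the nucleus and switches on the metallothionein genes at short promoter sequences named metal response elements. MT2A is the form most widely expressed in human cells, and the MT1 genes lie next to it in a cluster on chromosome 16.

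RNA was sequenced from RD, a fusion-negative rhabdomyosarcoma (FN-RMS) line, and from Rh30, a fusion-positive (FP-RMS) line, to ask which genes depend on the histone demethylase KDM3A. A lentivirus brought either a control shRNA with a scrambled sequence (Scramble) or 1 shRNA against KDM3A (KDM3A-sh2) into each line, all cells were selected with puromycin, and each of these 4 groups has 3 libraries. The sources do not say whether the 3 libraries came from separate cultures, so p-values measure the spread between these libraries only. The sample descriptions give the 3 Rh30 Scramble libraries the same final number, while in each other group the libraries are numbered in turn. What that number stands for is not said, so the Rh30 controls may be less separate than their replicate titles imply. RD cells grew in DMEM and Rh30 cells in RPMI, so line and medium cannot be told apart, and each subtype is represented by 1 line. Levels are FPKM, the fragments assigned to a gene, scaled to its exon length and to the mapped fragments of the library.

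The sequences of MT2A and MT2P1 are shown first because, of the 7 entries that passed the filter in RD, the lowest log2 change was that of a pseudogene that nearly repeats MT2A. MT2A lies at chr16:56608199-56609497 on the plus strand (GRCh38, GENCODE 29), with introns. MT2P1 is annotated as a processed pseudogene, an intronless copy of an mRNA put back into the genome, of 183 bases at chr4:68376323-68376505. Capitals mark the differing bases and the stop codon, which lies outside the MT2P1 annotation.
MT2A coding sequence: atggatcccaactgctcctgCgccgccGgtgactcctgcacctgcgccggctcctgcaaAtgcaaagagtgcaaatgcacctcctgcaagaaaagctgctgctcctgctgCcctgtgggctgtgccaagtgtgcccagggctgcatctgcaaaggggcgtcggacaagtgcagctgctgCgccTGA
MT2P1: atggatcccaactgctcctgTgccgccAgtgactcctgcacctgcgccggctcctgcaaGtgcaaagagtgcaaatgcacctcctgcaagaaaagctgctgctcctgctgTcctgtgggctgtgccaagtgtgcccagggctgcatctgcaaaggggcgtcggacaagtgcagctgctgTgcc
Over 183 bases the copies differed at 5 positions, C21T, G28A, A60G, C111T and C180T, counted from 1 at the A of the start codon with the MT2A base first. The longest run without a difference was 68 bases. Of the 134 stretches of 50 bases in MT2P1, 21 (15.7%) also occurred in a transcript of another gene, among them MT2A, MT1E and MT1P3, and none of its 33 stretches of 151 bases did. The study's methods give reads of 50 bases and the labels reads of 151. How the reads were divided between MT2A and MT2P1 was not tested, so the level of each is uncertain. Their sum is given too, but it is uncertain as well. FPKM are scaled to length, and the transcripts have 786 bases (MT2A) and 183 bases (MT2P1), so the sum depends on that division.

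KDM3A served as the check of the labels. It fell from 33.5 ± 2.50 to 12.2 ± 1.09 FPKM (SD, n = 3) in RD and from 29.7 ± 2.14 to 14.1 ± 1.15 FPKM (SD, n = 3) in Rh30 (limma, log2 change -1.39, adjusted p = 5.00e-05, and -1.02, adjusted p = 0.000348). The drop was smaller in Rh30 by 0.37 ± 0.12 (SE) on the log2 scale (adjusted p = 0.0388). The muscle markers MYOD1, MYOG, DES and CDH15 stood above 45 FPKM in every library and MYF5 stayed at or below 0.0272 FPKM. ALK, NOS1, TFAP2B and PIPOX, markers of fusion-positive tumours, stood at 13.0 FPKM (the lowest value) and above in Rh30 libraries and at 3.53 FPKM or less in RD. The leukocyte marker PTPRC stayed at or below 0.0933 FPKM and the endothelial marker PECAM1 at or below 1.20 FPKM, while the epithelial marker EPCAM reached 7.13 FPKM in Rh30 KDM3A-sh2 cells. Summed FPKM over all genes ran from 1198300 to 1379200 per library. FPKM do not hold the number of reads, so the depth behind each value is unknown.

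MT2A fell after KDM3A knockdown in Rh30. It stood at 257, 251 and 240 FPKM in the Scramble libraries and at 198, 193 and 213 FPKM in the KDM3A-sh2 libraries, and the groups did not overlap. The mean fell by 19.2% (log2 change -0.31 ± 0.05 (SE), limma, adjusted p = 0.00492). An exact two-sided permutation test gave p = 0.1, the smallest that 3 against 3 libraries allow. Of the 10 entries, 4 passed the filter of a mean of 1 FPKM in Rh30 (MT2A, MT2P1, MT1X and MTF1), and of these 1 was called lower, against 13.2% of the 17803 genes tested, and 1 higher, against 15.3%. The groups did not overlap for 2 of these 4 entries, against 45.8% of all genes tested. In a bulk sample, fewer cells expressing a gene and less RNA per cell cannot be told apart.

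The level of MT2A was lower in RD, and every KDM3A-sh2 value lay below the controls there too. Whether the effect of knockdown differed between the lines was not tested for these genes. It stood at 125, 155 and 155 FPKM with Scramble and at 74.4, 74.4 and 84.3 FPKM with KDM3A-sh2. The groups did not overlap, with a change of the mean of -46.5% and a log2 difference of -0.89. The 4 groups therefore stood in the order Rh30 Scramble, Rh30 KDM3A-sh2, RD Scramble and RD KDM3A-sh2, with no overlap between neighbours. In the control cells, MT2A was 1.72 times as high in Rh30 as in RD (log2 difference 0.78 ± 0.09 (SE), limma, adjusted p = 0.000134). Of the 3 members tested between the control cells, MT2A and MT1X were called higher in Rh30, against 35.0% called higher and 39.6% called lower among the 18357 genes tested, and MTF1 did not pass.

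**Figure D1:**
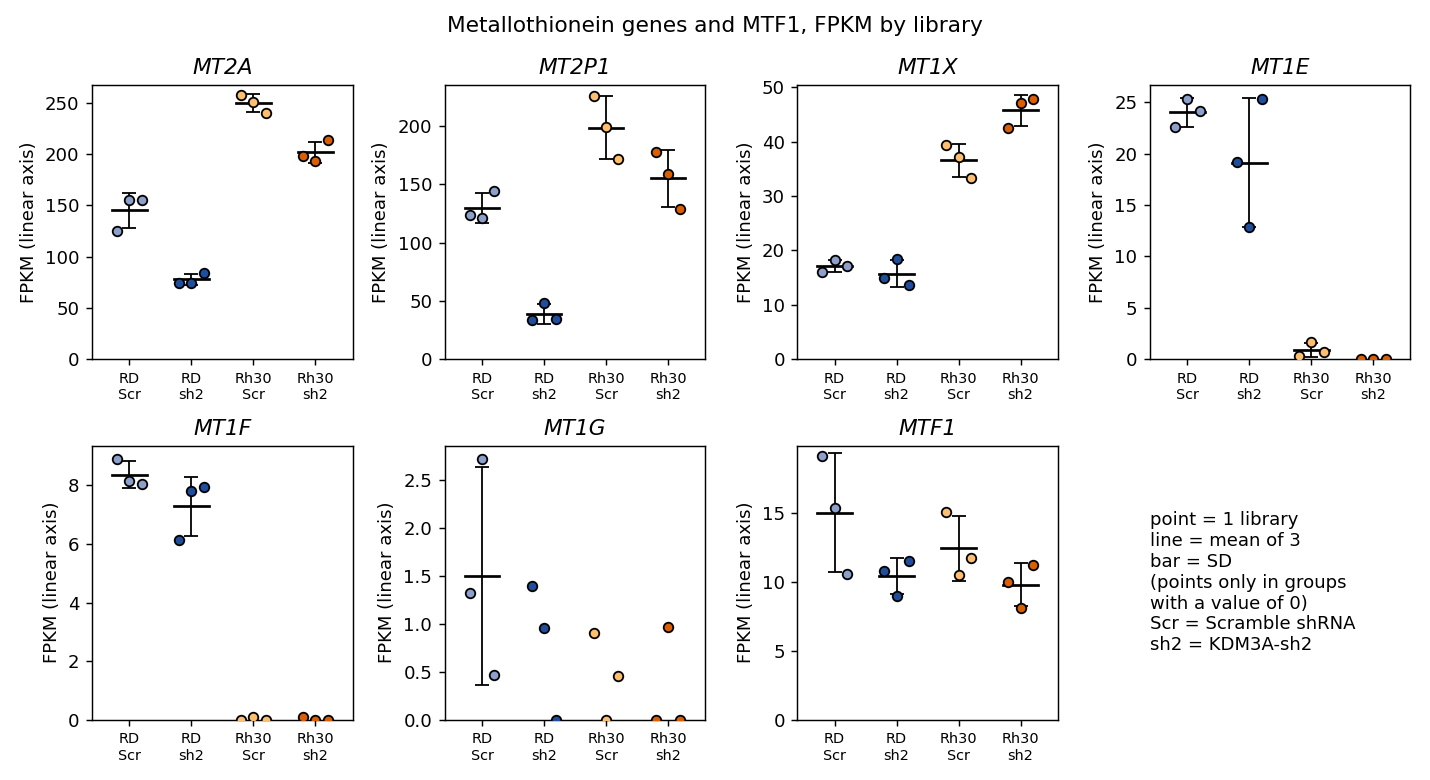
FPKM (linear axis from 0) of the 7 entries that passed the filter in at least 1 comparison, by group, with 1 point per library, the mean as a line and the SD as a bar (n = 3), and points only where a group holds a value of 0. MT2A and MT2P1 stood lowest in RD KDM3A-sh2, MT1X highest in Rh30 KDM3A-sh2, and MT1E and MT1F near 0 in Rh30.

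MT2P1 showed the widest gap in RD. Its main entry (ENSG00000162840) stood at 124, 121 and 144 FPKM in RD Scramble and at 33.4, 48.2 and 34.2 FPKM in RD KDM3A-sh2. The groups were far apart, with a change of the mean of -70.2% and a log2 difference of -1.74. In Rh30 it stood at 226, 199 and 172 FPKM with Scramble and at 178, 159 and 129 FPKM with KDM3A-sh2. These groups overlapped, and the difference of -0.36 ± 0.14 (SE) did not pass the test (limma, adjusted p = 0.0969). The second MT2P1 identifier (ENSG00000278061) was listed at 0 in all 12 libraries.

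MT2P1 and MT2A did not keep 1 ratio in RD. The FPKM of MT2P1 was 0.989, 0.782 and 0.928 times that of MT2A in the RD Scramble libraries and 0.449, 0.649 and 0.406 times in the RD KDM3A-sh2 libraries, so the ratio was lower in each knockdown library. In Rh30 the ratio was 0.876, 0.793 and 0.714 with Scramble and 0.896, 0.821 and 0.604 with KDM3A-sh2, and these ranges overlapped (exact two-sided permutation test, p = 0.9). Added together, MT2A and MT2P1 amounted to 275 ± 25.1 FPKM in RD Scramble and 116 ± 7.66 FPKM in RD KDM3A-sh2 (SD, n = 3). The same sum was 448 ± 35.5 FPKM in Rh30 Scramble and 357 ± 17.3 FPKM in Rh30 KDM3A-sh2 (SD, n = 3).

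MT1X, a functional MT1 gene at the far end of the cluster (chr16:56682424-56684196, plus strand), moved against MT2A in Rh30. It stood at 39.3, 37.1 and 33.3 FPKM with Scramble and at 42.6, 47.1 and 47.8 FPKM with KDM3A-sh2, without overlap. The mean rose by 25.3% (log2 change 0.32 ± 0.08 (SE), limma, adjusted p = 0.0218), and the exact permutation p was again the smallest possible, 0.1. The call was lost in 6 of 13 alternatives, with adjusted p up to 0.0711, among them those without Scramble replicate 2 (0.0516), KDM3A-sh2 replicate 2 (0.0691) or KDM3A-sh2 replicate 3 (0.0675). In RD, MT1X stood at 16.1, 18.3 and 17.2 FPKM with Scramble and at 15.0, 18.5 and 13.7 FPKM with KDM3A-sh2, and the groups overlapped. Between the control cells it was 2.13 times as high in Rh30 (log2 difference 1.05 ± 0.08 (SE), limma, adjusted p = 1.72e-05). The MT1X transcript shares more sequence with other genes than that of any other metallothionein member. Of its stretches of 50 bases, 45.1% recur in other transcripts, among them AC026461.1, which overlaps it, and MT2A. Of its 300 stretches of 151 bases, 16 (5.33%) recur, and only in AC026461.1.

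**Figure D2:**
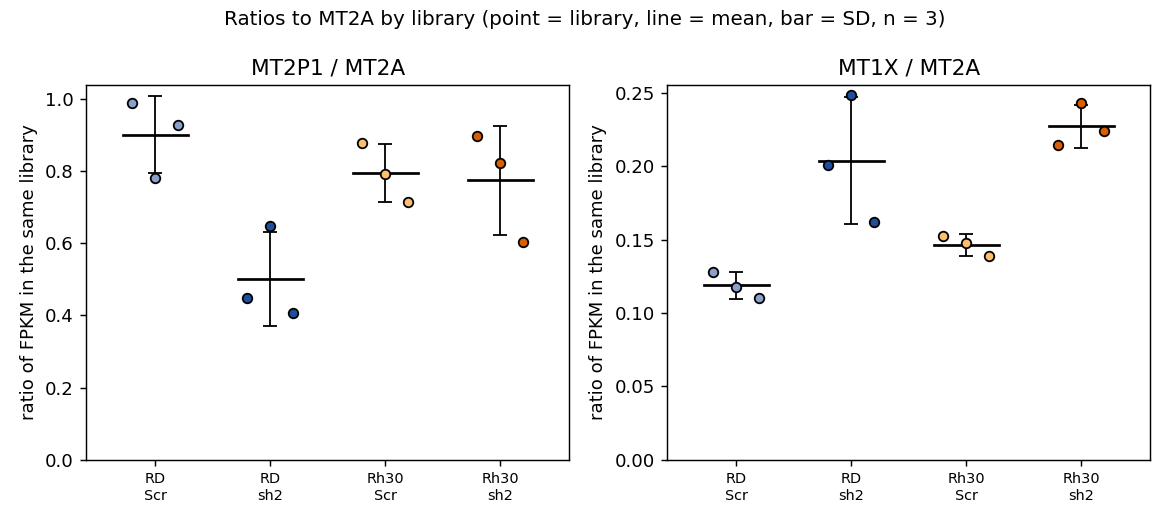
Ratio of the FPKM of MT2P1 (left) and MT1X (right) to that of MT2A in the same library, by group, with 1 point per library, the mean and the SD (n = 3). The ratio of MT2P1 to MT2A was lower in RD KDM3A-sh2 than in RD Scramble, a comparison on which MT2P1 was selected. The ratio of MT1X to MT2A was higher in the KDM3A-sh2 libraries of both lines.

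Measured against MT2A, MT1X stood higher after knockdown in both lines. The ratio of MT1X to MT2A was 0.153, 0.148 and 0.139 in Rh30 Scramble and 0.215, 0.244 and 0.224 in Rh30 KDM3A-sh2 (exact two-sided permutation test, p = 0.1, the smallest possible). In RD it was 0.128, 0.118 and 0.110 with Scramble and 0.201, 0.249 and 0.162 with KDM3A-sh2, given as a description. A ratio shows unequal change and not which of the genes changed.

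The promoters of these genes are shown because MT2A and MT1X carry the same element and moved in opposite directions in Rh30. The 250 bases before the RefSeq start (GRCh38.p14) are given for MT2A, chr16:56608334-56608583, and MT1X, chr16:56682220-56682469, both on the plus strand, with cores of the metal response element in capitals. The core was searched as TGCACNC or TGCGCNC on both strands, so a core on the other strand reads GNGTGCA or GNGCGCA.
MT2A promoter: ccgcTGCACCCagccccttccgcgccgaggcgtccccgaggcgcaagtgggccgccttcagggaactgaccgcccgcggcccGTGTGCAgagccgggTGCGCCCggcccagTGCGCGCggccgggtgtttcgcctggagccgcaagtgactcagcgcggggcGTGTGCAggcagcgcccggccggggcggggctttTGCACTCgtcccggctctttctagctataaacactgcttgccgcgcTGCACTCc
MT1X promoter: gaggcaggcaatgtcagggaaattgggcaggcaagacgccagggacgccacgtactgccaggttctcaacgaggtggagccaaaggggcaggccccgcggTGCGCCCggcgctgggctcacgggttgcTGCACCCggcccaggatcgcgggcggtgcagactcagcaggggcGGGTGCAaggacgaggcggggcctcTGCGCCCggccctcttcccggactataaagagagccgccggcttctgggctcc
The MT2A window held 7 cores, a number that 11 of the 35116 promoters in the table (0.0313%) reached, and the MT1X window held 4, reached by 130 promoters (0.370%). At least 1 core was found in 24.8% of all promoters. The window of MTF1 held none. The AP-1 element TGACTCA, found in 4.20% of promoters, occurred in the MT2A window 104 bases before the start and not in that of MT1X, and it overlapped no core. These are matches of letters, and binding was not measured. Of the 9 names, 3 were in the promoter table.

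MT1E and MT1F, neighbours of MT2A on chromosome 16, were found mainly in RD. MT1E stood at 22.5, 25.3 and 24.2 FPKM in RD Scramble and at 0.334, 1.65 and 0.673 FPKM in Rh30 Scramble. MT1F stood at 8.91, 8.15 and 8.04 FPKM in RD Scramble, and in Rh30 Scramble it was listed at 0, 0.0891 and 0 FPKM. Every Rh30 library lay below every RD library for both genes. They passed the filter of a mean of 1 FPKM only through RD, where they are high, so no test is given. The log2 differences of FPKM + 1, Rh30 minus RD, were -3.79 for MT1E and -3.19 for MT1F, and with a pseudocount of 0.1 in place of 1 they were -4.85 and -6.10.

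With KDM3A-sh2, MT1E was listed at 0 in each of the 3 Rh30 libraries. The positive values of the Scramble libraries were 1.00, 4.92 and 2.01 times the smallest of them. The whole difference thus lay near the lowest positive level listed for MT1E, and the exact permutation p was 0.1, the smallest possible. In RD KDM3A-sh2, MT1E stood at 19.1, 12.8 and 25.3 FPKM, a range that overlapped the controls. MT1F stood there at 6.13, 7.79 and 7.95 FPKM, each below the lowest control library, with a log2 difference of -0.18. Of the 10 entries, 7 passed the filter in RD, and MT2A, MT2P1 and MT1F were lower without overlap. Over all 17988 genes tested in RD, the groups did not overlap in 53.4%, and limma called 21.6% higher and 19.5% lower.

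The remaining MT1 members were scarce. MT1G, a functional gene on the minus strand, stood at 1.32, 2.72 and 0.470 FPKM in RD Scramble and at 1.40, 0.953 and 0 FPKM in RD KDM3A-sh2, and it did not exceed 0.970 FPKM in Rh30. MT1M was listed at 0 in every Rh30 library and reached 0.0705 FPKM in RD. MT1L, annotated as a pseudogene, reached 0.426 FPKM in 1 Rh30 KDM3A-sh2 library and 0.199 FPKM in RD. Among 12 further metallothionein genes and pseudogenes, MT1P3 and MT1XP1 exceeded 1 FPKM. MT1P3 ranged from 2.10 to 11.2 FPKM over the 12 libraries and passed no test. MT1XP1, a processed pseudogene on chromosome 1, was higher in Rh30 than in RD control cells (log2 difference 0.88 ± 0.21 (SE), limma, adjusted p = 0.00762), as MT1X was. Of its stretches of 50 bases, 27.7% recur in other transcripts, MT1X among them, and none of its 36 stretches of 151 bases does.

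MTF1, the factor that senses zinc and drives these genes, lies apart from them at chr1:37809567-37859620 on the minus strand. It stood at 15.1, 10.5 and 11.8 FPKM in Rh30 Scramble and at 10.0, 8.16 and 11.3 FPKM in Rh30 KDM3A-sh2. The groups overlapped, and the log2 difference of -0.31 ± 0.15 (SE) did not pass the test (limma, adjusted p = 0.175). In RD it stood at 19.2, 15.4 and 10.6 FPKM with Scramble and at 10.8, 8.98 and 11.5 FPKM with KDM3A-sh2, also with overlap. Between the control cells the log2 difference was -0.23 ± 0.22 (SE, adjusted p = 0.362). The level of its mRNA does not show how much of the protein is bound to zinc.

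The makeup of the metallothionein mRNA differed between the lines. Summed over the 8 metallothionein members, the level was 326 ± 25.8 FPKM in RD Scramble and 159 ± 8.53 FPKM in RD KDM3A-sh2, against 486 ± 38.6 and 403 ± 14.2 FPKM in Rh30 (SD, n = 3). Without MT2P1 these sums were 196 ± 19.1, 121 ± 9.26, 287 ± 11.7 and 248 ± 11.9 FPKM (SD, n = 3). Of the sum without MT2P1, MT2A made up 73.8% ± 1.92 in RD Scramble and 86.8% ± 0.573 in Rh30 Scramble. With KDM3A-sh2 its share was 64.4% ± 0.497 in RD and 81.3% ± 1.12 in Rh30 (SD, n = 3). MT1E followed in RD Scramble with 12.3% ± 0.593, where MT1X had 8.77% ± 0.432, whereas in Rh30 Scramble MT1X followed with 12.7% ± 0.544 (SD, n = 3).

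**Figure D3:**
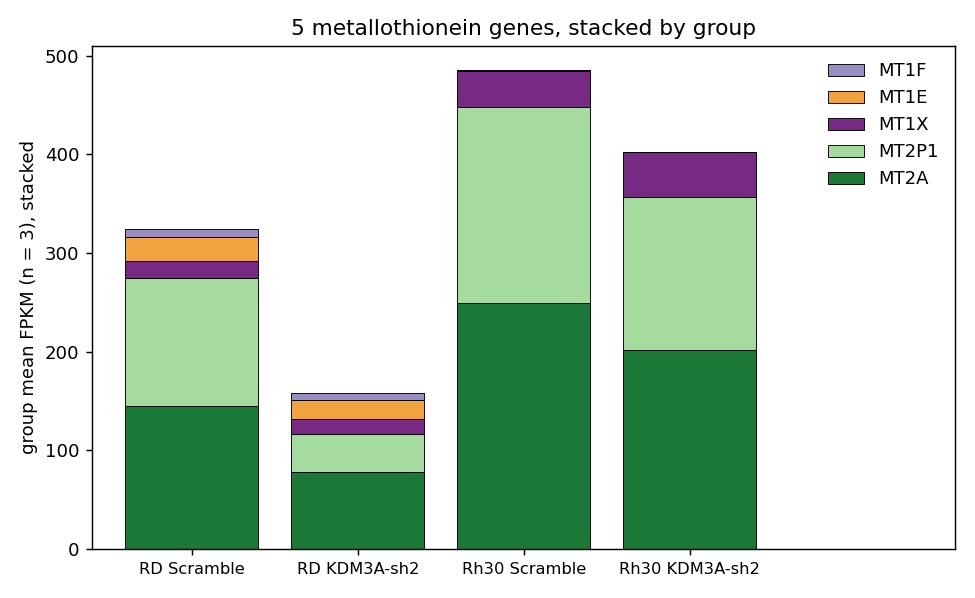
Group mean FPKM (n = 3) of 5 metallothionein genes, stacked by group on a linear axis from 0. MT2A and MT2P1 make up most of each bar, MT1E and MT1F are visible in the RD bars, and the RD KDM3A-sh2 bar is the lowest.

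The genes that move zinc across membranes shifted after knockdown in RD. Of 24 listed SLC30 exporters and SLC39 importers, 17 were tested in RD, and 11 rose while 0 fell (limma, adjusted p under 0.05), against 21.6% higher and 19.5% lower over all genes, with a median log2 change of 0.26 against 0.01. At an unadjusted p under 0.05, 12 were higher and 0 lower, and the study's own kind of test, on FPKM without a log, called 10 higher and 0 lower. SLC30A6, which loads zinc into the Golgi, rose from 20.6 to 32.5 FPKM (log2 change 0.64, adjusted p = 0.000231), SLC39A13 from 22.3 to 33.9 FPKM (0.58, adjusted p = 0.00298) and SLC39A10, a plasma membrane importer, from 18.2 to 25.5 FPKM (0.47, adjusted p = 0.00156). In Rh30, 3 of 17 rose and 2 fell, close to the 15.3% and 13.2% over all genes, with a median of 0.05 against 0.03, and the test without a log called 0 higher and 1 lower. SLC30A1, the plasma membrane exporter that MTF1 is known to induce, fell there from 13.5 to 10.9 FPKM (log2 change -0.28 ± 0.07 (SE), adjusted p = 0.0206), a call lost in 6 of 13 alternatives (adjusted p up to 0.0663), among them those without KDM3A-sh2 replicate 1, 2 or 3 or without Scramble replicate 1 or 3. In RD its log2 change was -0.13 (adjusted p = 0.188). SLC39A13 (0.35, adjusted p = 0.0139) and SLC30A6 (0.26, adjusted p = 0.0357) rose in Rh30 too, though the call of SLC30A6 was lost in 9 of 13 alternatives (adjusted p up to 0.108), 5 of them without 1 library (KDM3A-sh2 replicate 1, 2 or 3, Scramble replicate 1 or 2). The interaction of line and shRNA, which called 27.8% of all genes, was called for 5 of 18 zinc transporters, SLC30A6, SLC39A6, SLC39A7, SLC39A9 and SLC39A14, each with a lower log2 change in Rh30 than in RD.

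**Figure D4:**
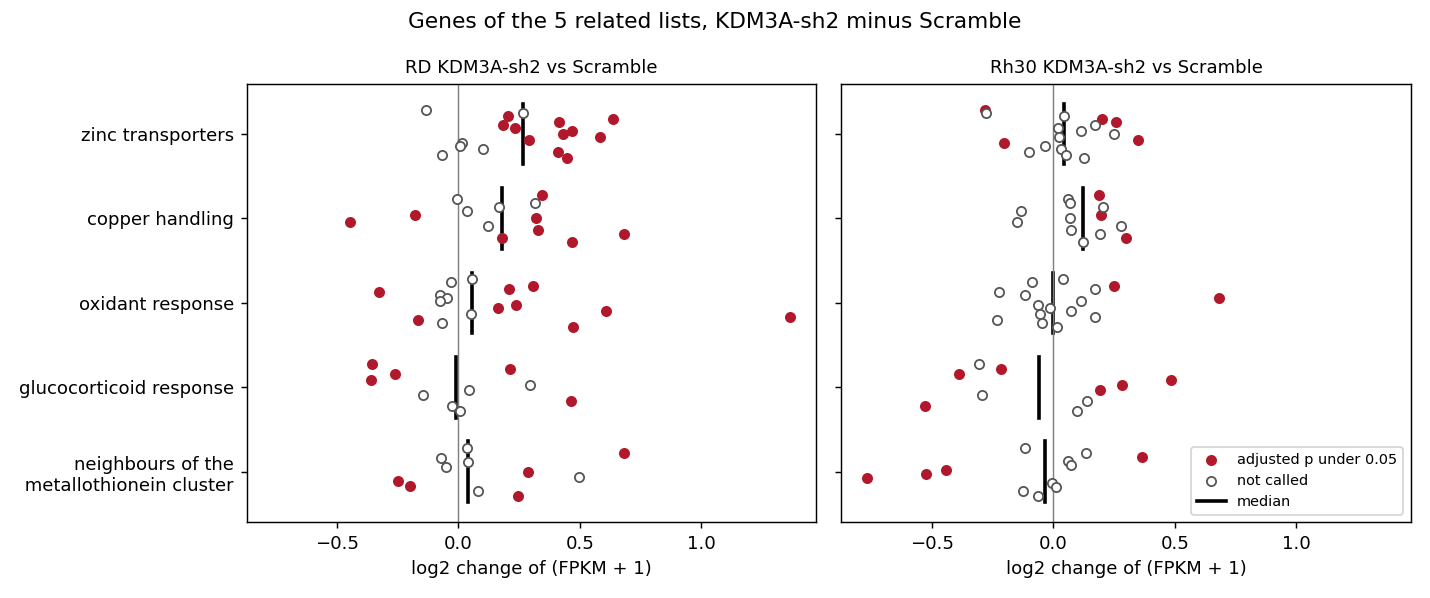
Log2 change of FPKM + 1, KDM3A-sh2 minus Scramble, for the tested genes of 5 lists in RD (left) and Rh30 (right), with 1 point per gene, filled where adjusted p was under 0.05, and the list median as a bar. In RD the zinc transporters lie mostly to the right of 0, while in Rh30 most genes of the lists were not called.

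Genes of copper handling and of the oxidant response, which metallothioneins also serve, were counted in the same way. For copper, 6 of 13 rose and 2 fell in RD (21.6% and 19.5% over all genes), led by SLC31A2, a copper transporter of endosomes (53.0 to 85.6 FPKM, log2 change 0.68, adjusted p = 3.66e-05), STEAP3 (0.47, adjusted p = 0.000238) and SCO1 (-0.45, adjusted p = 0.000826). In Rh30 (15.3% higher and 13.2% lower over all genes), 3 of 13 rose, SOD1 (0.30, adjusted p = 0.00253), COX11 (0.19, adjusted p = 0.0175) and ATOX1 (0.19, adjusted p = 0.0251), and 0 fell by either test, with 1 lower at an unadjusted p under 0.05. For the oxidant response, 7 of 16 rose and 2 fell in RD, where 21.6% and 19.5% of all genes did, with SLC7A11, the cystine importer, up from 2.69 to 8.50 FPKM (log2 change 1.36, adjusted p = 7.50e-05), OSGIN1 (0.61, adjusted p = 0.00087) and TXNRD1 (0.47, adjusted p = 0.000102). In Rh30, 2 of 16 rose, against 15.3% of all genes. HMOX1, which degrades haem, rose from 13.8 to 22.7 FPKM (0.68, adjusted p = 0.000293), while 0 of 16 fell by either test, against 13.2% of all genes by limma, with 2 lower at an unadjusted p under 0.05. In the control cells, 16 of 16 genes of the oxidant list were lower in Rh30 than in RD, against 39.6% of all genes (median log2 difference -1.11 against -0.04), and NQO1 stood at 41.4 FPKM in Rh30 and 404 FPKM in RD.

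Glucocorticoids are a further known inducer of MT2A, and a list of their targets with NR3C1, their receptor, gave calls in both directions. Of 10 genes tested in each line, 2 rose and 3 fell in RD (21.6% and 19.5% over all genes), and 3 rose and 3 fell in Rh30 (15.3% and 13.2%), with medians of -0.01 and -0.06. The receptor itself is 1 of the 3 that rose in Rh30 (0.19, adjusted p = 0.0354). In RD, SGK1 rose (0.46, adjusted p = 0.000748), and FKBP5 (-0.36, adjusted p = 0.00237) and CEBPD (-0.35, adjusted p = 0.0297) fell. In Rh30, KLF9 rose (0.49, adjusted p = 0.00665), and TSC22D3, which encodes GILZ (-0.53, adjusted p = 0.000483), and ERRFI1 (-0.39, adjusted p = 0.000616) fell.

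Genes that lie around the metallothionein cluster on chromosome 16 gave counts in RD close to those of all genes. There, 3 of 11 rose and 2 fell (median 0.04), against 21.6% and 19.5%, among them ARL2BP (0.68, adjusted p = 5.00e-05), HERPUD1 (0.29, adjusted p = 0.00797) and NUDT21 (-0.25, adjusted p = 0.0245). In Rh30, where 15.3% of all genes rose and 13.2% fell, 1 of 12 rose, BBS2 (0.37, adjusted p = 0.0124), and 3 fell (list median -0.04), NLRC5 (-0.77, adjusted p = 0.0163), HERPUD1 (-0.52, adjusted p = 0.00266) and GNAO1 (-0.44, adjusted p = 0.0323). In the control cells, 9 of 12 were higher in Rh30 and 1 lower, against 35.0% and 39.6% of all genes. One of the 9, GNAO1, passed the filter only through Rh30 (5.78 FPKM against 0.781 FPKM in RD).

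Across the 12 libraries, the genes whose log2(FPKM + 1) followed MT2A most closely, among the 11016 genes whose mean reached 10 FPKM, were SRRT (Pearson r = 0.994), RCOR2 (0.994), PPIF (0.992), GBX2 (0.989) and NCAPD2P1 (0.989). MT2P1 ranked 469 (0.943), MT1X 2362 (0.822), KDM3A 4270 (0.502), MTF1 5175 (0.0831) and MT1E 7734 (-0.761). With the mean of each line taken off, the first 5 were UBE2SP1 (0.992), ACTC1 (0.980), SRRT (0.980), RCOR2 (0.979) and SAFB (0.978). PPIF, GBX2 and NCAPD2P1 were no longer among them. In that ranking MT2P1 stood at 426 (0.913), KDM3A at 443 (0.911), MTF1 at 2826 (0.576), MT1E at 3024 (0.543) and MT1X at 5301 (0.0565). The 12 points share 4 groups, so these values describe how alike the group means are and carry no test.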

How the data were processed

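Poly(A) RNA of 12 libraries gave directional single-end libraries. Per the submitters' processing notes and the study's methods, the authors used GSNAP for alignment to GRCh38, SAMtools, and Cufflinks for FPKM, and these deposited FPKM were used as they stand. The annotation release and the handling of reads that match several genes are not given in the sources used here. For identifiers listed more than once, 120 entries were left out, and a placeholder in 17 genes was treated as missing. All 12 columns matched 1 sample each.

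Groups were compared with limma-trend (limma 3.58.1, R 4.3.3) on log2 of FPKM plus a pseudocount of 1. Genes entered where the mean of the libraries compared reached 1 FPKM. Two-sided p-values were adjusted over all these genes (Benjamini-Hochberg), and adjusted values under 0.05 were called. The interaction used all 12 libraries. Fold changes on this scale understate those of low genes. An ANOVA on FPKM without a log was an alternative. The study used ANOVA on FPKM but does not say whether a log was taken. Single values were compared with exact two-sided permutation tests computed with NumPy 2.4.6 under Python 3.11.15. The fits were tested on simulated data. Libraries of 1 group correlated at 0.992 to 0.993 across 14499 genes and shared at most 2 equal values.

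The members and the gene lists were chosen with earlier results of these data known. The text names all members, for each list and line the 3 called genes that changed most, and the 5 genes most like MT2A in each ranking. A gene that this choice includes is not reported here. NQO1, BBS2, NR3C1 and the further genes named for the interaction were added after their values were seen. Positions and transcripts came from GENCODE 29 and promoters from RefSeq (GRCh38.p14).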

Additional observations from a re-analysis of the deposited data

Results flagged for a closer look

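The effect of KDM3A-sh2 differed between the lines for 25 of the 70 list genes tested (35.7%, against 27.8% of all genes), by the interaction term of limma over all 12 libraries (adjusted p from 7.24e-06 to 0.0372). The difference is given as the log2 change in Rh30 minus that in RD. KDM3A itself fell less in Rh30 (0.37 by the same term, adjusted p = 0.0388), and the part this plays was not tested. It was positive for 7 genes, HMOX1 (0.73), BBS2 (0.44), COX11 (0.37), FKBP5 (0.35), SCO1 (0.30), NUDT21 (0.24) and NUP93 (0.21). FKBP5 entered this test only through RD, because no Rh30 library exceeded 0.0291 FPKM. Its change in Rh30 could not be measured, and its difference rests on the drop in RD (log2 change -0.36). The difference was negative for 18 genes. Of these, 5 are zinc transporters, SLC39A14 (-0.50), SLC30A6 (-0.38), SLC39A7 (-0.35), SLC39A9 (-0.32) and SLC39A6 (-0.20), and 3 handle copper, SLC31A2 (-0.49), STEAP3 (-0.35) and SLC31A1 (-0.26). The others were NLRC5 (-1.26), SLC7A11 (-1.19), HERPUD1 (-0.81), ARL2BP (-0.54), OSGIN1 (-0.53), TSC22D3 (-0.50), TXNRD1 (-0.46), DUSP1 (-0.43), RSPRY1 (-0.31) and NFE2L2 (-0.30). STEAP3 stood at 1.36 FPKM in Rh30 Scramble against 29.3 FPKM in RD Scramble, and log2 changes of FPKM + 1 understate those of low genes.

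Of the 25 genes, 4 passed the test in both lines with opposite signs. COX11 fell in RD (-0.18, adjusted p = 0.0275) and rose in Rh30 (0.19, adjusted p = 0.0175). HERPUD1, SLC39A14 and DUSP1 rose in RD and fell in Rh30. For SLC39A14, a zinc importer, the log2 change in RD was 0.29 (adjusted p = 0.00211) and that in Rh30 was -0.20 (adjusted p = 0.0336), and for DUSP1 it was 0.21 (adjusted p = 0.0259) and -0.22 (adjusted p = 0.0222). For the metallothionein members this difference was not tested, because they were selected on the RD comparison.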

How the results depend on the processing

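No result that was rerun reversed its direction under any alternative. For the difference between the lines only the counts over all genes were rerun, so the 25 single genes flagged above were not. The calls of SLC39A14, DUSP1, BBS2, NR3C1, NQO1 and MT1XP1, and that of COX11 in RD, were not rerun either. Of 255 alternative values of the counts of called genes, over all genes and over lists, 222 stayed within 1.5 times. Of 621 alternative values of single genes and sums, 560 kept their call or value, 55 lost the call, 1 gained it and 5 moved. In Rh30, 2719 genes were called higher, and 1798 with the replicate block (1621 to 2127 with 1 library left out, the lowest without Rh30 KDM3A-sh2 replicate 1, with 1759 when replicate 2 was the one left out). The replicate block, which takes the labels' replicate number as a pair, brought MT2P1 in Rh30 to adjusted p = 0.00968 and MT1X to 0.0662, but numbers shared by libraries did not mark pairs (correlations of deviations from -0.0744 to 0.0559). The count of zinc transporters called in Rh30, 5, was 8 in 1 fit over all 12 libraries, 1 by ANOVA, 3 on the TPM scale, 3 without a filter and 1 with the replicate block (1 to 4 with 1 library left out, and 1 without KDM3A-sh2 replicate 1, 2 or 3 or Scramble replicate 1). For copper handling the count was 5 by ANOVA in RD (5 to 7 with 1 library left out), and in Rh30 it was 6 in 1 fit over all 12 libraries, 6 with the filter at 10 FPKM and 1 to 3 with 1 library left out. For glucocorticoid response it was 3 by ANOVA in RD (3 to 5 with 1 library left out) and 3 with the replicate block in Rh30 (3 to 4). For the neighbours of the cluster it was 3 by ANOVA and 3 without a filter in RD (3 to 5), and 2 with the filter at 10 FPKM and 2 without a filter in Rh30 (2 to 4). Calls were also lost in Rh30 for ATOX1 (7 of 13 alternatives), GNAO1 (6 of 12), COX11 (4 of 13), NLRC5 (3 of 12) and SLC39A13 (2 of 13), and in RD for CEBPD and NUDT21 (6 of 13 each). The cause of these shifts was not tested. Between the control cells MT1E and MT1F moved with a pseudocount of 0.1 (-4.85 and -6.10). Values in RD that moved were MT1G (-1.29 with a pseudocount of 0.1), MT2A (-1.23 with MT2P1 added) and the summed level (-0.70 without MT2P1). On the TPM scale the median of all genes between the control cells went from -0.04 to -0.14, under which MT2A and MT1X stayed higher in Rh30 and MT1E and MT1F lower. The interaction has no separate joint fit and was not run as ANOVA.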
